A study of Homo sapiens with 4 samples.

Results

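The genes that supply cysteine, build glutathione from it and break glutathione down were followed in TK6 cells grown under simulated microgravity. The 10 genes were listed by their place in the pathway, with earlier results of these data known: CBS and CTH, which make cysteine from homocysteine, SLC7A11, which imports cystine, GCLC, GCLM and GSS, which assemble glutathione, CHAC1 and CHAC2, which take it apart, GGCT, which acts on other gamma-glutamyl amino acids, and GPX4, which spends it. All 10 of 10 were present among the 11415 gene symbols with RNA-seq counts, and none was removed by a filter on low counts. TK6 is an established human lymphoblastoid line, heterozygous at the thymidine kinase locus, so every library came from a single line. For simulated microgravity, cells were seeded at 200000 per ml in a high aspect ratio vessel, a bioreactor rotated at 12 rpm so that the cells stay in free fall in the medium, and 2 libraries were made from RNA taken after 48 h. The 2 static control libraries came from cells held for the same 48 h in a bioreactor that was not rotated, and the groups share medium, line and seeding density. Rotation also changes fluid flow and mixing, so the groups differ in more than the direction of the gravity vector. The labels number the libraries of each condition 1 and 2 and do not say whether they came from separate cultures. The spread between these libraries may thus be technical. The edgeR test used below draws the spread of each gene strongly toward that of all genes. In its p-values a gene's own gap between replicates therefore weighs less.

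Cells take up cystine, the oxidised dimer of cysteine, through the SLC7A11 exchanger in return for glutamate, or make cysteine from methionine by transsulfuration, in which CBS joins homocysteine to serine and CTH splits the resulting cystathionine. Glutamate cysteine ligase, built of the catalytic subunit GCLC and the modifier subunit GCLM, makes gamma-glutamylcysteine, and GSS adds glycine to give glutathione, the main thiol antioxidant of the cell. CHAC1 and CHAC2 cleave the gamma-glutamyl bond of glutathione and so release cysteinylglycine, GGCT acts on other gamma-glutamyl amino acids, and GPX4 uses glutathione to reduce lipid peroxides. Transcription of CHAC1, CTH and SLC7A11 is known to follow ATF4, the transcription factor of the integrated stress response to amino acid shortage and misfolded protein. GCLC, GCLM and SLC7A11 are known targets of NRF2, the factor that answers to oxidants.

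Summed over all 22375 transcript records, the counts of a library came to between 112609031 and 126368530. Records of 1 gene share reads, and over 1 record per gene the totals ran from 57481510 to 64497288. The counting noise of all 10 genes was small, since the lowest count of any of them was 402. Replicates of a condition differed by more than sampling noise, with chi-square values per degree of freedom of 22.4 in simulated microgravity and 19.6 in static control. The first principal component of the log2 CPM values held 50.24% of the variance and placed simulated microgravity replicate 2 at -13.13, replicate 1 at -1.31 and the static controls at 3.48 and 10.96, so replicate 2 stood farthest from the controls. The 10 genes and the lists are also given below with a single rotated library against both controls. For the 10 genes this comparison was planned. B cell markers were listed for 12 of 14 genes, with a summed level of 3551 to 3730 CPM in simulated microgravity and 3507 to 3641 CPM in static control, and 0 of them were called. Of the other cell types, 1 of 12 T and NK cell markers was listed (NKG7, 5.76 to 7.08 CPM), 0 of 12 erythroid and megakaryocyte markers, 2 of 10 myeloid (ITGAM and S100A9, 20.0 to 22.3 CPM together), 1 of 9 fibroblast (COL1A1, 7.39 to 9.24 CPM) and 1 of 8 epithelial (KRT8, 77.0 to 81.7 CPM). Records at or below 1 CPM in every library were left out of the table, so a missing marker was not listed rather than measured at 0.

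Of the 10 genes, CHAC1 and CTH were called higher in simulated microgravity and 0 were called lower, by edgeR's quasi-likelihood test at a false discovery rate under 0.1 over all 11415 genes. Over all genes the test called 27 higher, or 0.237%, and 99 lower, or 0.867%. By log2 fold change CHAC1 ranked 1 and CTH ranked 6 among all genes, and with simulated microgravity replicate 1 alone they ranked 14 and 527. The other 8 genes did not pass, although the fold change of all 10 was above 0, against 50.21% of all genes, and the median log2 fold change was 0.20 against 0.00 for all genes. An unadjusted p under 0.05 was reached by 5 of the 10 and by 8.077% of all genes. Both simulated microgravity libraries lay above both static controls for 6 of the 10, namely CHAC1, CTH, SLC7A11, CHAC2, GCLM and GCLC, against 17.9% of all genes. In bulk libraries, fewer cells of a type and less RNA per cell cannot be told apart. Levels below are in CPM, counts scaled by edgeR to the library's total over 1 record per gene and by its TMM factor, which is not corrected for transcript length, so levels are compared between libraries and not between genes.

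**Figure D1:**
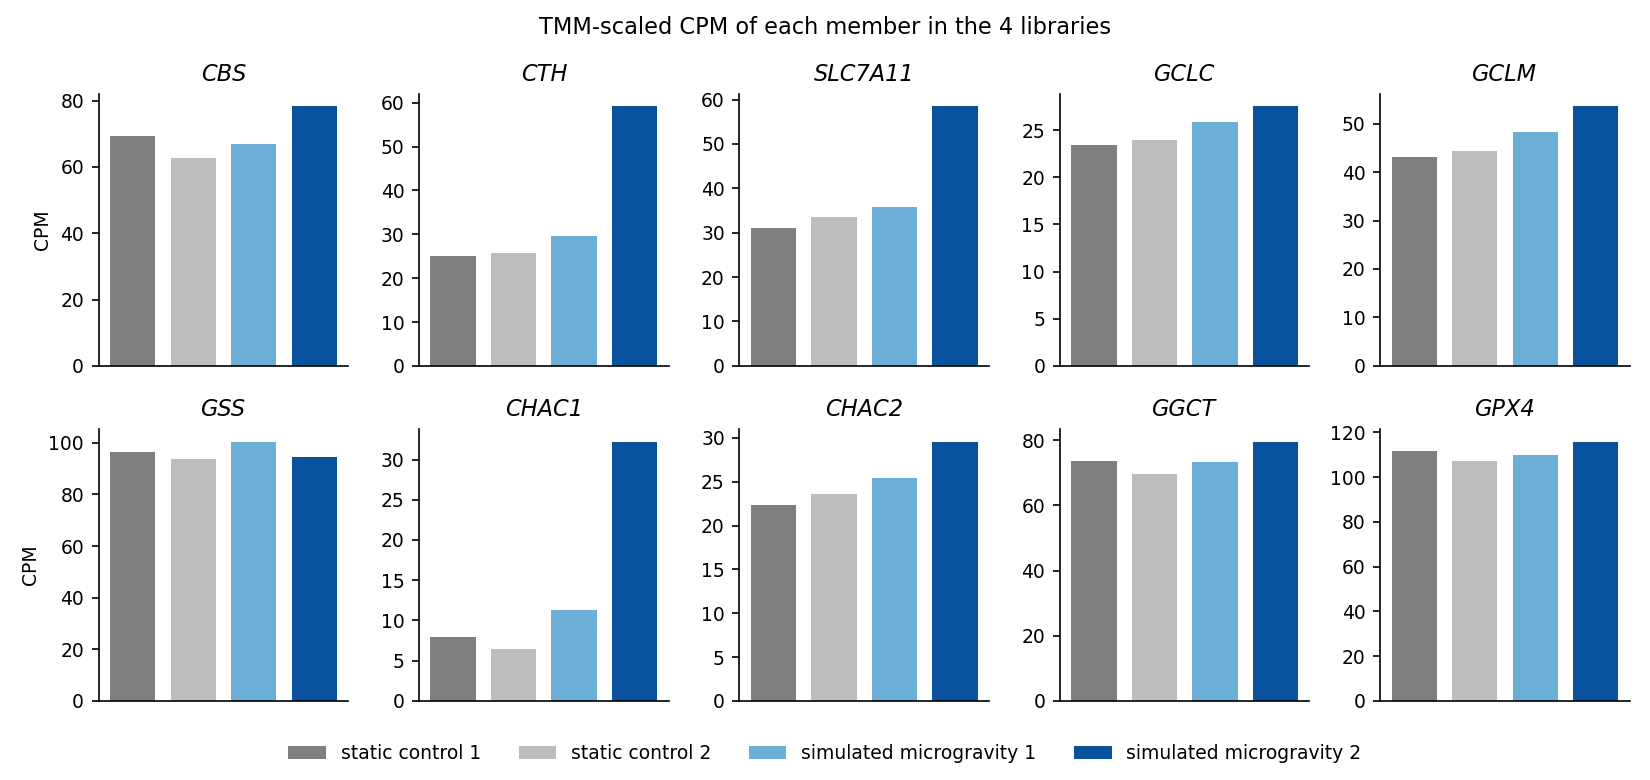
Level of each of the 10 genes (vertical axis, TMM-scaled CPM from 0, a scale of its own in each panel) in the 4 libraries, 1 bar per library. CHAC1 stood at 32.2 CPM and CTH at 59.2 CPM in simulated microgravity replicate 2, while the bars of GSS and GPX4 were nearly level.

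CHAC1, the stress-inducible enzyme that degrades glutathione in the cytosol, had the highest log2 fold change of all genes tested. Its level was 11.3 CPM in simulated microgravity replicate 1 and 32.2 CPM in replicate 2, and 7.96 and 6.48 CPM in static control replicates 1 and 2. Both rotated libraries were above both controls, and replicate 2 was 2.86-fold above replicate 1, the fourth widest gap between the simulated microgravity libraries among all genes (rank 4 of 11415). The mean of simulated microgravity was 21.8 ± 14.8 CPM (SD, n = 2), against 7.22 ± 1.04 CPM (SD, n = 2) for static control. The fitted log2 fold change was 1.60 with a standard error of 0.29, a 3.02-fold difference, at an adjusted p of 0.0101 by edgeR's quasi-likelihood test. Against both controls alone, the fold change of replicate 1 was 0.64 on the log2 scale (standard error 0.14, adjusted p = 0.000608, edgeR) and that of replicate 2 was 2.16 (standard error 0.10), and both passed. The direction was thus the same in both rotated libraries and the size was not. The call for CHAC1 was lost with DESeq2 (adjusted p = 0.655) and with edgeR's robust setting (adjusted p = 0.842), at log2 fold changes of 1.59 and 1.60. Their standard errors were wider, at 0.71 and 0.77.

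CHAC1 lies on chromosome 15 at 41245636 to 41248717, plus strand (hg19), and both of its records were counted. Its promoter is shown because CHAC1 is a known ATF4 target and had the highest log2 fold change, and that of CTH because CTH was the other gene called. The windows run from 250 bases before to 50 bases after the RefSeq start on GRCh38.p14, chr15:40953221-40953520 for CHAC1 and chr1:70411018-70411317 for CTH, both plus strand, and capitals mark a match to the ATF4 composite element TGATGNAA on either strand.
CHAC1: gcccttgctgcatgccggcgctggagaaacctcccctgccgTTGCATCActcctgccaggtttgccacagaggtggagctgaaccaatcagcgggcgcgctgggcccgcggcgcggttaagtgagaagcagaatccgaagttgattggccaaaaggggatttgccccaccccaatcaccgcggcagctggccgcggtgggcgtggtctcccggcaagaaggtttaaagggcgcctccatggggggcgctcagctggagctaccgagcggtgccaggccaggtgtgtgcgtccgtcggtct
CTH: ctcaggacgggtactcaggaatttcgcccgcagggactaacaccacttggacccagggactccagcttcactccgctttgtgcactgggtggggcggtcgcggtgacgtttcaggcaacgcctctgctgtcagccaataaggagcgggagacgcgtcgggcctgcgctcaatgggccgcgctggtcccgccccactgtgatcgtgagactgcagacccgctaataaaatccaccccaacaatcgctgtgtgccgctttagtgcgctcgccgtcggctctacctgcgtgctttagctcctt
The CHAC1 window held 1 match, TTGCATCA on the plus strand, which reads the element on the opposite strand, at -209 to -202 from the start, and the CTH window held none. The same letters occurred in 3.62% of the 35116 RefSeq promoters of this length, so a match by itself is a description of the window. Promoter sequence was at hand for 7 of the 10 genes, and of these CHAC1 was the only one with this match. The antioxidant response element core TGACNNNGC, which NRF2 binds, occurred in 13.3% of promoters and was found in the windows of GCLM (GCTTAGTCA, -34 to -26) and CBS (GCGCGGTCA, -83 to -75, in 1 of its 3 windows), in both on the opposite strand. The windows of GCLC, CHAC2 and GPX4 held neither.

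CHAC2, the constitutive relative of CHAC1 with slower turnover, was at 25.4 and 29.6 CPM in simulated microgravity and at 22.3 and 23.6 CPM in static control. The groups did not overlap, but the log2 fold change of 0.26 (standard error 0.09) did not pass (adjusted p = 0.333, edgeR), with an interval of 2 standard errors on each side from 0.08 to 0.44. Replicate 1 alone gave 0.15 (adjusted p = 0.746, edgeR) and did not pass, and replicate 2 alone gave 0.37 and passed (adjusted p = 0.00575). CHAC2 shares part of its locus on chromosome 2, 53994929 to 54002287, with ASB3 and GPR75-ASB3 on the opposite strand, whose log2 fold changes were -0.08 and -0.08, and use of strand in counting is not given in the sources used here. GGCT, gamma-glutamylcyclotransferase, was at 73.3 and 79.6 CPM in simulated microgravity and at 73.7 and 69.6 CPM in static control, so the groups overlapped. Its log2 fold change was 0.09 (standard error 0.08, adjusted p = 0.886, edgeR), with an interval from -0.06 to 0.25. It passed with neither rotated library alone (0.03 with replicate 1 and 0.15 with replicate 2).

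CTH, cystathionine gamma-lyase, which releases cysteine in the last step of transsulfuration, was at 29.7 and 59.2 CPM in simulated microgravity replicates 1 and 2 and at 25.0 and 25.7 CPM in static control. The controls lay within 1.03-fold of each other, while replicate 2 was 1.99-fold above replicate 1 in simulated microgravity, so the difference between the groups came mostly from replicate 2. The means were 44.4 ± 20.8 CPM (SD, n = 2) and 25.3 ± 0.519 CPM (SD, n = 2). The log2 fold change was 0.81 with a standard error of 0.19, a 1.76-fold difference, at an adjusted p of 0.0525 by edgeR. Against both controls, replicate 2 alone gave 1.23 (standard error 0.10) and passed, and replicate 1 alone gave 0.23 (standard error 0.10, adjusted p = 0.347, edgeR) and did not. The call for CTH was also lost with DESeq2 (adjusted p = 0.999), limma-voom (adjusted p = 0.110) and edgeR's robust setting (adjusted p = 0.880), at log2 fold changes of 0.81, 0.73 and 0.81. CTH lies on chromosome 1 at 70876901 to 70905534, plus strand (hg19).

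CBS, cystathionine beta-synthase, the enzyme just before CTH, was at 66.9 and 78.2 CPM in simulated microgravity and at 69.3 and 62.8 CPM in static control. Replicate 1 lay between the controls and replicate 2 above both. The log2 fold change was 0.14 (standard error 0.09, adjusted p = 0.806, edgeR), with an interval from -0.04 to 0.31. Replicate 2 alone gave 0.25 and passed (adjusted p = 0.0640, edgeR), and replicate 1 alone gave 0.02 (adjusted p = 0.992).

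SLC7A11, the light chain of the cystine and glutamate exchanger xCT, was at 35.7 and 58.5 CPM in simulated microgravity replicates 1 and 2 and at 31.1 and 33.4 CPM in static control. The groups did not overlap, and replicate 1 was closer to the controls than to replicate 2. The log2 fold change of 0.55 (standard error 0.15), a 1.46-fold difference, ranked 23 of all genes, or 1302 with replicate 1 alone, and missed the threshold (adjusted p = 0.121, edgeR), with an interval from 0.26 to 0.84. Against both controls replicate 2 alone gave 0.86 and passed, and replicate 1 alone gave 0.15 (adjusted p = 0.736, edgeR). SLC7A11 did pass with DESeq2's size factors in edgeR (adjusted p = 0.0818) and with genes limited to a mean count of at least 100 (adjusted p = 0.0685). It did not pass with DESeq2 (adjusted p = 0.999), edgeR's robust setting (adjusted p = 0.877) or limma-voom (adjusted p = 0.172). The standard errors with DESeq2 and the robust setting were wider, at 0.35 and 0.33. Its side of the threshold thus rested on the setting. Its gene on chromosome 4, 139085248 to 139163503, minus strand (hg19), overlaps the antisense gene SLC7A11-AS1, which stood at 3.39 and 4.32 CPM in simulated microgravity and 2.88 and 2.98 CPM in static control, and without strand the reads of the overlap cannot be told apart.

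The enzymes that build glutathione differed less. GCLC, the catalytic subunit of the rate-limiting ligase, was at 25.9 and 27.5 CPM in simulated microgravity and at 23.4 and 23.96 CPM in static control. Its log2 fold change was 0.17 (standard error 0.08, adjusted p = 0.633, edgeR), with an interval from 0.01 to 0.34. The unadjusted p was 0.0530 by edgeR, although this interval of 2 standard errors on each side lay above 0. Neither replicate 1 (0.13) nor replicate 2 (0.22) passed alone. GCLM, the modifier subunit, was at 48.2 and 53.6 CPM in simulated microgravity and at 43.1 and 44.3 CPM in static control. Both ligase subunits were higher in each rotated library than in each control, by less than the test could call. The log2 fold change of GCLM was 0.22 (standard error 0.08, adjusted p = 0.407, edgeR), with an interval from 0.06 to 0.39, and replicate 2 alone gave 0.30 and passed (adjusted p = 0.0353), while replicate 1 alone gave 0.14 and did not (adjusted p = 0.740). GSS, glutathione synthetase, was at 101 and 94.4 CPM in simulated microgravity and at 96.3 and 93.8 CPM in static control, and was the 1 gene of the 10 that was highest in replicate 1. Its log2 fold change was 0.04 (standard error 0.07, adjusted p = 0.981, edgeR), with an interval from -0.11 to 0.18, and its sign turned with replicate 2 alone (-0.01, against 0.08 with replicate 1 alone). GPX4, the glutathione peroxidase that protects membrane lipids, was at 110 and 116 CPM in simulated microgravity and at 112 and 107 CPM in static control, and the groups overlapped. On the log2 scale it differed by 0.05 (standard error 0.07, adjusted p = 0.974, edgeR), with an interval from -0.10 to 0.19, and it passed with neither rotated library alone (0.01 and 0.09).

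**Figure D2:**
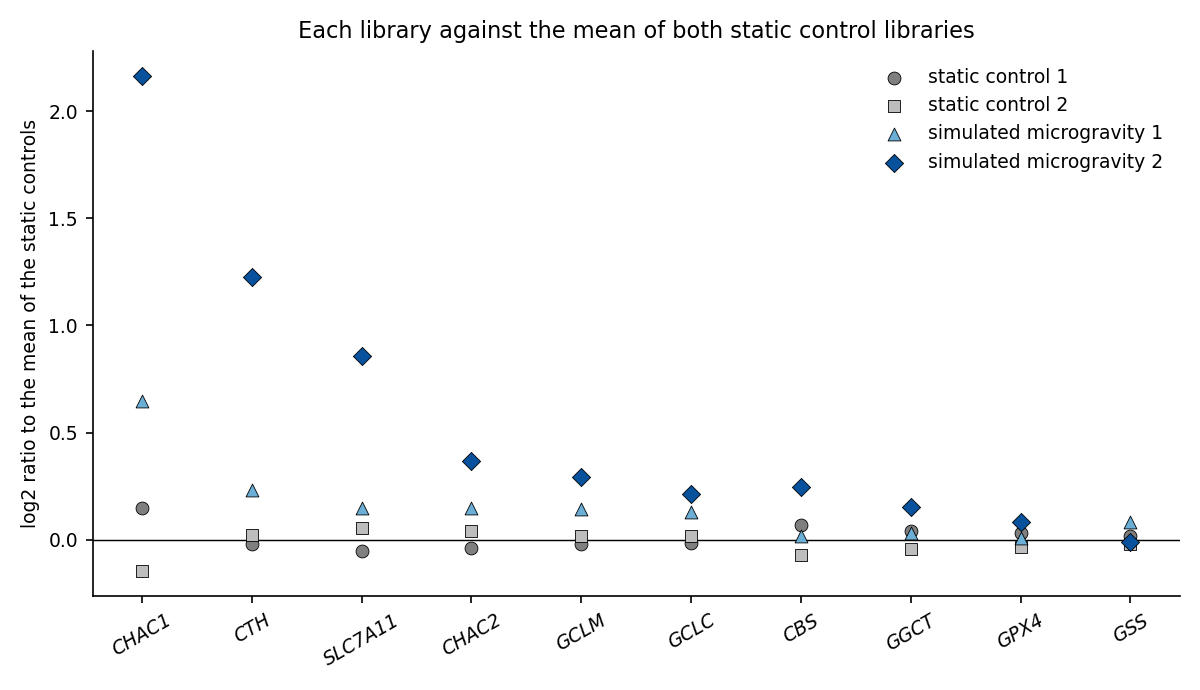
Log2 ratio of each library to the mean log2 CPM of both static controls (vertical axis) for the 10 genes, ordered by log2 fold change, 1 point per library. Simulated microgravity replicate 2 was the highest library for 9 of the 10 genes, against 29.23% of all genes. Replicate 1 lay nearer the controls for CHAC1, CTH and SLC7A11.

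The rotated libraries were set against both controls 1 at a time, in a fit that assumes the lone library to vary as the controls do. Replicate 1 alone called 1 of the 10 genes higher, CHAC1, where 0.797% of all genes were called higher and 1.06% lower. Replicate 2 alone called 6 higher, CHAC1, CTH, SLC7A11, CHAC2, GCLM and CBS, where 2.5% of all genes were called higher and 5.19% lower. The median log2 fold change of the 10 genes was 0.14 with replicate 1 and 0.27 with replicate 2, against 0.00 for all genes with either. Replicate 2 was above replicate 1 in simulated microgravity for 9 of the 10 genes, against 48.31% of all genes, and for 5 of the 10 in static control. The gap between replicates had a median of 0.19 on the log2 scale over the 10 genes in simulated microgravity, with a range from 0.08 to 1.52, and of 0.07 in static control, with a range from 0.03 to 0.30. Over all genes the median gaps were 0.10 and 0.08. The spread of these genes was thus wider between the rotated libraries than between the controls, and what set replicate 2 apart was not tested.

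**Figure D3:**
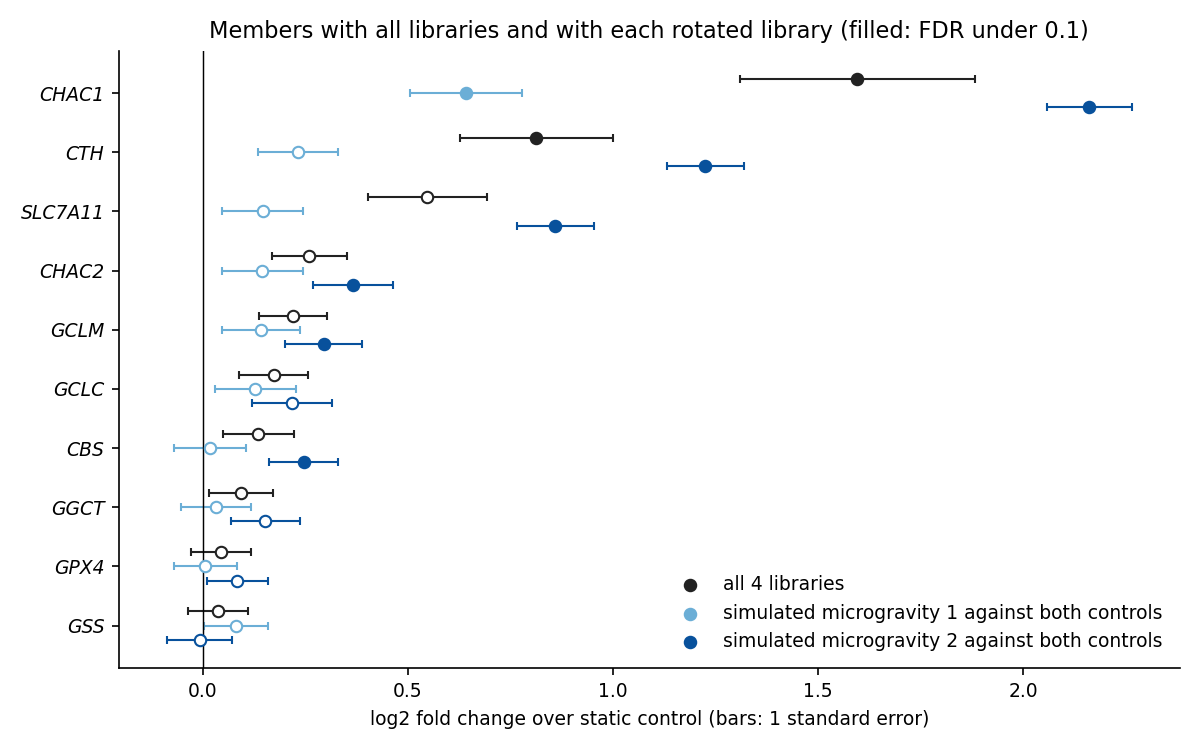
Log2 fold change over static control (horizontal axis, bars of 1 standard error) for the 10 genes with all 4 libraries and with each simulated microgravity library against both controls, filled points being past a false discovery rate of 0.1. CHAC1 was filled in all 3 fits, and CTH moved from 0.23 with replicate 1 to 1.23 with replicate 2.

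The table gives a row to each transcript record, and the 10 genes had 22 records, more than 1 for 6 genes. Fitted over all 22375 records, of which 0.322% were called higher, 6 of the 22 were called, and all 6 were higher. They were both CHAC1 records (log2 fold change 1.59 to 1.60), the 3 CTH records (0.81 to 0.83) and the SLC7A11 record (0.55, adjusted p = 0.0512, edgeR). Records of 1 gene share most of their reads and are not separate evidence, and SLC7A11 passed over records but not over genes at the same fold change.

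Genes around the pathway were taken from 7 lists, described by their counts. Of the methionine cycle and the uptake of cystine or cysteine, 11 of 17 genes were measured and 1 was called higher, 0 lower, with a median log2 fold change of 0.06. The gene called was SLC1A5, a transporter of neutral amino acids, at 102 and 123 CPM in simulated microgravity and 85.3 and 79.3 CPM in static control (log2 fold change 0.45, standard error 0.09, adjusted p = 0.0140, edgeR), and it passed with replicate 1 alone (0.31) and with replicate 2 alone (0.58). SLC3A2, the heavy chain that anchors SLC7A11 in the membrane, did not pass (log2 fold change 0.18, adjusted p = 0.562), nor did MTR, methionine synthase (-0.27, adjusted p = 0.274), or MAT2A, which makes S-adenosylmethionine (-0.11, adjusted p = 0.816). With replicate 2 alone SLC3A2 was called higher (0.29) and MTR lower (-0.41), and with replicate 1 alone neither was called (0.07 and -0.13). Of other glutathione breakdown and the gamma-glutamyl cycle, 4 of 12 genes were measured, and 0 were called by edgeR or DESeq2 or reached an unadjusted p under 0.05, with a median of 0.02. They were GGT1, which degrades glutathione outside the cell (log2 fold change 0.21, adjusted p = 0.791, and 0.43 with replicate 1 alone, adjusted p = 0.0467), the peptidases LAP3 (-0.09) and CNDP2 (0.02), and GGACT (0.03).

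Of the enzymes that use glutathione, 20 of 38 were measured and 0 were called, with a median log2 fold change of 0.04. The smallest p-values belonged to the microsomal transferases MGST2 (0.46, adjusted p = 0.324, edgeR) and MGST3 (0.15) and the glutaredoxins GLRX2 (0.35, adjusted p = 0.467) and GLRX (0.14). Of the other fates of cysteine, 14 of 16 were measured and 0 were called, with a median of 0.06. CARS and CARS2, which charge tRNA with cysteine, stood at 0.27 (adjusted p = 0.221) and 0.21 (adjusted p = 0.411) on the log2 scale, and the aminotransferases GOT1 and CCBL1 at 0.22 (adjusted p = 0.274) and 0.23 (adjusted p = 0.431). Of selenoprotein synthesis and lipid peroxide control, 17 of 18 were measured and 0 were called, with a median of 0.06. SEPW1, SEPHS1 and the thioredoxin reductases TXNRD2 and TXNRD1 had log2 fold changes of 0.22, 0.20, 0.20 and 0.19, with adjusted p from 0.407 to 0.575. Over these 3 lists 0 genes passed by edgeR or DESeq2 with all libraries. An unadjusted p under 0.05 by edgeR was reached by 2 of 20, 4 of 14 and 4 of 17, against 8.077% of all genes. The medians were 0.06, 0.09 and 0.10 with replicate 2 alone and 0.04, 0.09 and 0.03 with replicate 1 alone. With replicate 2 alone, 16 of 20, 11 of 14 and 12 of 17 genes were above 0, against 50.21% of all genes. With replicate 1 alone these counts were 13, 12 and 10, against 50.03% of all genes. GLRX2 stood at 0.54, MGST2 at 0.51 and CARS at 0.41 with replicate 2 alone. GSTZ1, named after its value was seen, stood at -0.32 with replicate 2 alone. GOT1 stood at 0.20 with replicate 2 alone and at 0.25 with replicate 1 alone.

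Outside the 10 genes, the ATF4 target list had 31 of 35 genes measured, with 2 called higher, 0 lower and a median log2 fold change of 0.23, and 28 of the 31 above 0, against 50.21% of all genes. INHBE, an inhibin subunit gene induced in the integrated stress response, was at 10.0 and 19.5 CPM in simulated microgravity and 7.63 and 8.05 CPM in static control (log2 fold change 0.92, standard error 0.20, adjusted p = 0.0335, edgeR). SESN2, a stress-induced regulator of mTORC1 that binds leucine, was at 36.2 and 56.6 CPM and at 32.8 and 30.3 CPM (0.56, standard error 0.14, adjusted p = 0.0779). Neither passed with replicate 1 alone (0.35 and 0.20), and both did with replicate 2 alone (1.32 and 0.85). The large neutral amino acid transporter SLC7A5 (0.42, adjusted p = 0.115) and DDIT3, which encodes CHOP (0.50, adjusted p = 0.117), did not pass. With replicate 2 alone 24 of the 31 were called higher and 0 lower, where 2.5% of all genes were called higher and 5.19% lower, with a median of 0.33. With replicate 1 alone 0 were called higher and 1 lower, where 0.797% of all genes were called higher and 1.06% lower, with a median of 0.06, the lower gene being DDIT4 (-0.32), named after its value was seen. Of the 10 genes, 9 were also higher in replicate 2 than in replicate 1, against 48.31% of all genes. These were all but GSS, so they include CHAC1, CTH and SLC7A11 and also GCLC and GCLM. DESeq2 called 1 of the list and edgeR's robust setting 0.

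The NRF2 target list outside the 10 genes had 19 of 27 genes measured, with 4 called higher, 0 lower and a median of 0.13. DESeq2 and edgeR's robust setting each called 4 of the list higher. HMOX1, heme oxygenase, was at 31.0 and 25.0 CPM in simulated microgravity and 16.9 and 14.3 CPM in static control (log2 fold change 0.84, standard error 0.11, adjusted p = 0.00124, edgeR), and its higher level was in replicate 1. NQO1, a quinone reductase, was at 160 and 174 CPM and at 125 and 125 CPM (0.42, standard error 0.07, adjusted p = 0.00798). The ferritin genes FTH1, at 911 and 929 CPM against 725 and 709 CPM, and FTL, at 997 and 966 CPM against 778 and 803 CPM, rose by 0.36 (adjusted p = 0.0135) and 0.31 (adjusted p = 0.0340) on the log2 scale. Processed copies of the ferritin genes lie elsewhere in the genome. Reads that fit a copy equally well would have been removed with the multiply mapped reads. All 4 were called with either rotated library alone, so that here both libraries were high. GCLC and GCLM, which are NRF2 targets as well, did not pass with all libraries or with replicate 1 alone, and GCLM passed with replicate 2 alone. Without static control replicate 1 the list had 1 gene called, and without replicate 2 it had 2.

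**Figure D4:**
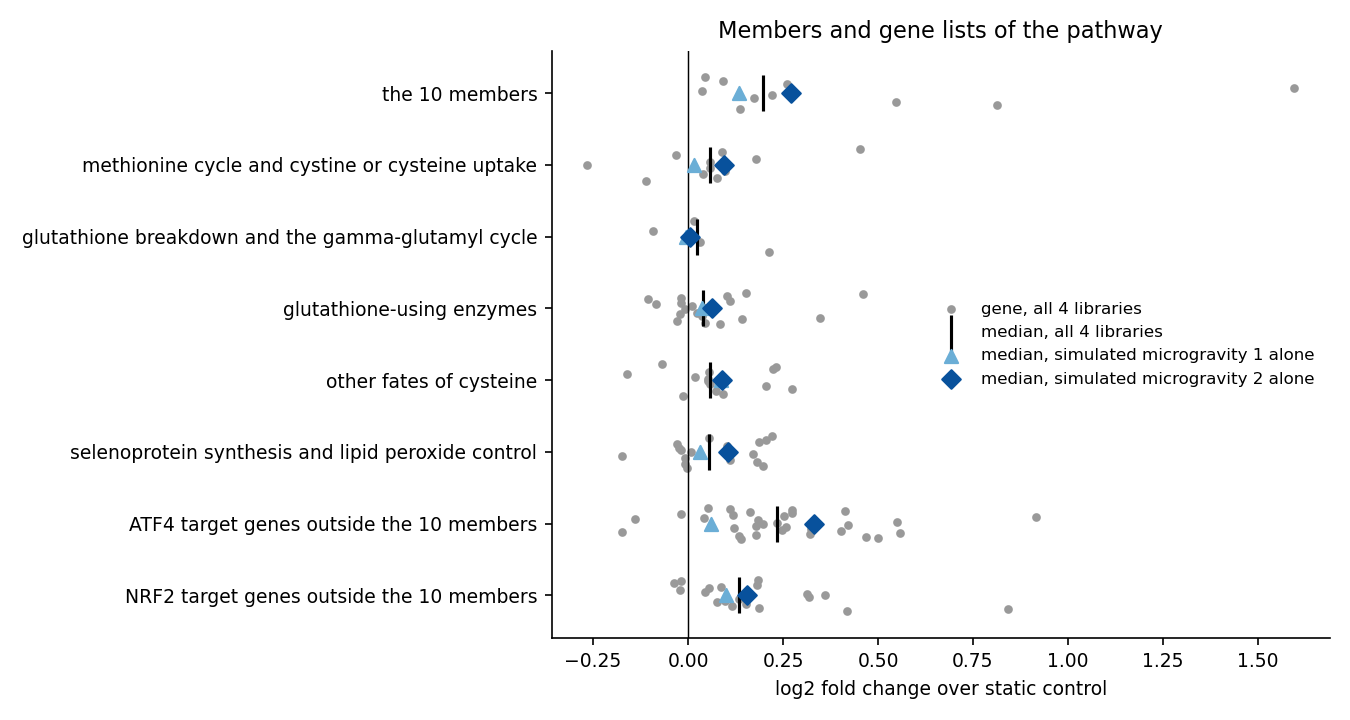
Log2 fold change over static control (horizontal axis) of each measured gene of the 10 and of the 7 lists, 1 grey point per gene, with the median from all 4 libraries and from each simulated microgravity library alone. The medians of the ATF4 list lay at 0.06 with replicate 1 and 0.33 with replicate 2.

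The genes most like CHAC1 and CTH were ranked by the distance between log2 CPM profiles over the 4 libraries, each centred on the static control mean. Nearest to CHAC1 were ATAD3C (distance 0.81), INHBE (0.94), CTH (1.06), TRPA1 (1.10) and SPG20 (1.38). TRPA1 was at 4.62 and 4.95 CPM in simulated microgravity and at 2.60 and 1.94 CPM in static control. SPG20 was at 1.96 and 2.51 CPM and at 1.22 and 1.55 CPM. Neither had the wide gap of CHAC1 between the rotated libraries. ATAD3C was at 2.96 and 8.75 CPM in simulated microgravity and at 3.34 and 2.42 CPM in static control, so its replicate 1 lay among the controls. It has near-identical neighbours, and reads that fit them equally well would have been removed as multiply mapped. Nearest to CTH were INHBE (0.15), SLC7A11 (0.38), CEBPB (0.39), SESN2 (0.40) and FAM43A (0.42). The levels of CEBPB and FAM43A were low, from 2.24 to 4.01 CPM and from 1.45 to 2.65 CPM. Of the nearest genes of CTH, SLC7A11 is a member and INHBE, CEBPB and SESN2 belong to the ATF4 list, and with 4 libraries the likeness rests mainly on the level in replicate 2.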

How the data were processed

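RNA of TK6 cells was sequenced in 2 simulated microgravity and 2 static control libraries. The authors aligned reads to hg19 with TopHat2 (version 2.0.8 in the submitters' notes), removed multiply mapped reads and deposited raw counts per transcript record beside CPM, counts scaled to the library total. The deposited CPM values were read only to check the table, which lists the 22375 records above 1 CPM in at least 1 library. Its columns of the authors' own fold changes and p-values were not used. Here the record with the highest mean count stood for each gene, giving 11415 genes. Counts were tested with edgeR 4.0.16 (R 4.3.3; TMM, filterByExpr, which removed 0 genes, quasi-likelihood test, Benjamini-Hochberg, false discovery rate under 0.1), with the condition as the only term. The script was tested on simulated data. Standard errors are the absolute log2 fold change over the square root of F. Alternatives were DESeq2 1.42.0, limma-voom 3.58.1, other scalings, filters, records and thresholds, a replicate block and leaving out each library. The 10 members and the lists were chosen with earlier results of these data known. Named genes are the members, the 4 genes of smallest p in each list and the 5 profiles nearest to CHAC1 and CTH. Promoters are from RefSeq, GRCh38.p14.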

Additional observations from a re-analysis of the deposited data

How the results depend on the processing

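The count of members called higher, 2, fell to 0 with DESeq2, with edgeR's robust setting and with the replicate block, and to 1 with limma-voom and at a false discovery rate under 0.05. Leaving out 1 library gave 1 to 6 members called, 2 to 11 of the 22 records called against 6, and 70 to 877 genes called against 126, and the highest of each came without simulated microgravity replicate 1. All log2 fold changes of the 10 genes kept their sign under every alternative run except GSS, which ran from -0.007 to 0.081 over the fits without 1 library and was below 0 without simulated microgravity replicate 1. Over the 9 alternatives that kept all libraries, CHAC1 ran from 1.42 to 1.60 and was called in 6, CTH from 0.73 to 0.82, called in 5, and SLC7A11 from 0.51 to 0.55, called in 2. The fit without a filter is counted among the 9, and among the calls of CHAC1 and CTH. It repeats the main fit, because the filter removed 0 genes, and so is no separate check. Without static control replicate 2 SLC7A11 passed at 0.60. The labels do not say whether same-numbered libraries belong together. Their deviations had a correlation of 0.080, which shows little shared shift but cannot show that they were unpaired. The replicate block called 96 genes and 0 members, with CHAC1 at 1.44 (adjusted p = 0.130, edgeR), CTH at 0.74 (adjusted p = 0.154) and SLC7A11 at 0.51 (adjusted p = 0.167). Why the calls changed was not tested. With 2 libraries a condition, the spread of a single gene is hardly measured, and it was borrowed from all genes.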
